A study of Homo sapiens with 3 samples.

Results

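SRM and EIF5A2 lie on one short biochemical route. Both were chosen as the genes of that route whose levels differed from the control array in opposite directions. They are 2 of 14884 genes that had a named probe set on the array, and each was measured by 1 probe set. SRM encodes spermidine synthase, and EIF5A2 encodes a second form of the translation factor eIF5A. They were chosen by their log2 levels on the 3 arrays, so those levels are a description with no test.

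The cells were A549, an established human lung cancer line. They were transfected with siTAZ (an siRNA against TAZ, gene WWTR1), siYAP (an siRNA against YAP, gene YAP1) or the control siRNA siNC, and total RNA was taken 48 h later. TAZ and YAP are co-activators at the end of the Hippo pathway. Each group had 1 array, so there were 3 arrays in all and no replicate. The sources used here do not give the number or sequence of the siRNAs per target. A difference is the difference of 2 log2 levels, a fold is that difference on the linear scale, and neither could be set against the spread between cultures.

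Spermidine is made from putrescine, which ornithine decarboxylase (ODC1) forms from ornithine, and from the aminopropyl group of decarboxylated S-adenosylmethionine, which AMD1 supplies. SRM joins them, and spermine synthase (SMS) can extend spermidine to spermine. Deoxyhypusine synthase (DHPS) moves part of spermidine onto a single lysine of eIF5A, and deoxyhypusine hydroxylase (DOHH) completes the residue, hypusine. Modified eIF5A helps the ribosome through sequences that it translates slowly, such as runs of proline, and in termination. EIF5A is expressed in nearly all cells. EIF5A2 is expressed in fewer normal tissues, lies on the long arm of chromosome 3 and has been described as raised in several cancers.

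The 250 bases before the annotated start of each gene are shown because a motif named for MYC and related factors was present in both. They are from RefSeq (GRCh38.p14), which had 1 start window for each gene, and are written 5′ to 3′ on the gene's strand, the minus strand in both cases. The SRM window is chr1:11060019-11060268 and the EIF5A2 window chr3:170908638-170908887. Capitals mark the E-box CACGTG and the NF-Y box CCAAT on either strand.

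SRM: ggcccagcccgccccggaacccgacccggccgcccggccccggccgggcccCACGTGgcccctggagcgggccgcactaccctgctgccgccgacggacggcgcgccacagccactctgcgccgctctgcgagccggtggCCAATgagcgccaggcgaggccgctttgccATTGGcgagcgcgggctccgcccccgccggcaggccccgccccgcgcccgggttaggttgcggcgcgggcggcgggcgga

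EIF5A2: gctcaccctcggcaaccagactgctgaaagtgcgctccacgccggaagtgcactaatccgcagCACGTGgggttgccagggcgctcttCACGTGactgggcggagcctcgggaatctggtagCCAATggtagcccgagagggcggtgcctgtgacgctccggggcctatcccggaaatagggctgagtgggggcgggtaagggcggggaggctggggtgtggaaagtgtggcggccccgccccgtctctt

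The E-box occurred once in the SRM window, with its first base 199 bases before the start. It occurred at 2 places in the EIF5A2 window, with first bases 187 and 162 bases before the start. The E-box reads the same on both strands, and 6.34% of 35116 RefSeq windows of this length held at least 1, while 0.535% held 2 or more. The NF-Y box was found 2 times for SRM and 1 time for EIF5A2. At least 1 was in 32.0% of the windows, and 2 or more in 9.53%. The GC box GGGCGG, read on both strands, was found 6 times for SRM and 5 times for EIF5A2. At least 1 was in 42.6% of the windows, and 2 or more in 24.3%. The share of windows with as many as 5 or 6 was not counted. The core of the TEAD motif, GGAATG or CATTCC, was in neither window, and 11.9% of the windows held it. No motif overlapped another. The SRM window was 82% G or C and the EIF5A2 window 66.8%, against a median of 58% over all windows. These are matches of letters, and the arrays measured no binding.

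**Figure D1:**
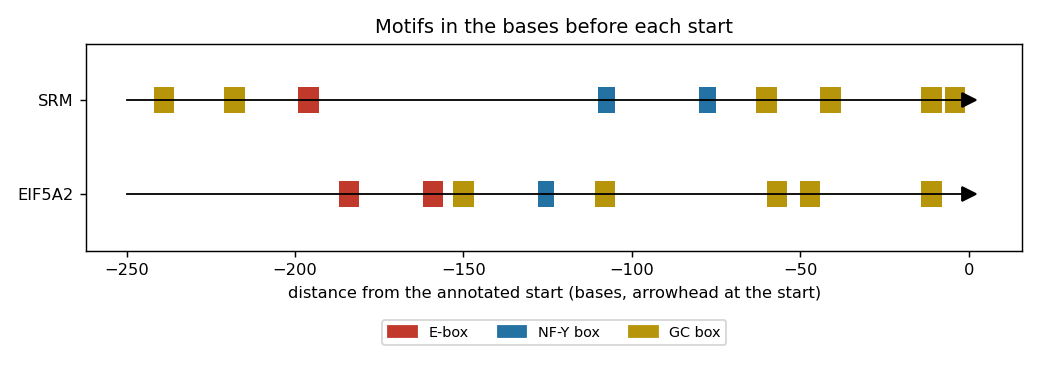
Map of the motifs found in the 250 bases before the annotated start of SRM (top) and EIF5A2 (bottom). The x axis is the distance from the start in bases, and the coloured blocks are motif matches on either strand; both genes hold an E-box, an NF-Y box and several GC boxes.

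The siRNA targets were checked first. WWTR1 was 5.81 on the siTAZ array, 6.50 on the siYAP array and 6.50 on the siNC array, so 62.2% of the siNC level was left after siTAZ. YAP1 was 6.87 on the siYAP array, 8.24 on the siTAZ array and 8.45 on the siNC array, which left 33.5% after siYAP. The target genes CCN2 and ANKRD1 were lower than siNC by 1.55 and 2.23 on the log2 scale on the siTAZ array and by 1.09 and 0.57 on the siYAP array. The medians of all probe sets were 4.26 to 4.28. All 5 named epithelial markers passed the filter on dim probe sets (a mean level of at least 4.27). Their mean level was 7.71 on the siTAZ array, 7.85 on the siYAP array and 7.85 on the siNC array. The 8 named markers of leukocytes, endothelium and fibroblasts included 5 above the filter. The mean level over the named genes of each of these 3 lists was higher on both knockdown arrays than on siNC, at 5.74, 5.77 and 5.55 for leukocytes, 4.07, 4.04 and 3.97 for endothelium, and 6.60, 6.58 and 6.33 for fibroblasts (siTAZ, siYAP and siNC in each case). After siTAZ 1 gene carried each of these means. LUM was 0.69 and 0.66 above siNC (siTAZ and siYAP), while THY1, the other fibroblast marker, was at -0.16 in both. CD68 was 0.57 and 0.59 above, while CD14 was at 0 and 0.059 and LYZ at 0 in both. PECAM1, which was under the filter, was 0.30 and 0.21 above, while VWF and KDR were at 0 in both. Their part in the SRM difference was not tested.

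SRM, the spermidine-forming enzyme, was 10.35 on the siTAZ array, 10.28 on the siYAP array and 9.25 on the siNC array. Both knockdown arrays were above the control by about the same amount. The difference was 1.09 after siTAZ (2.13-fold) and 1.02 after siYAP (2.03-fold), which placed SRM 4 and 8 from the highest of the 10768 kept genes. At least 2-fold higher were 0.0743% of the kept genes after siTAZ and 0.0743% after siYAP. The 2 differences share the siNC array, the one on which SRM was lowest. Set against the mean of siNC and the other knockdown array, SRM was 0.58 above after siTAZ and 0.48 above after siYAP, under 2-fold in both. Between the knockdowns, SRM was 10.28 on the siYAP array and 10.35 on the siTAZ array, a difference of -0.069.

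EIF5A2 was 6.08 on the siTAZ array, 7.00 on the siYAP array and 7.33 on the siNC array. The siTAZ array was the low one, and the siYAP array lay nearer to the control. After siTAZ the difference was -1.25, or 2.37-fold lower, the level was 42.2% of siNC, and the gene was 8 from the lowest of the kept genes, of which 0.241% were at least 2-fold lower. After siYAP it was -0.33, or 1.26-fold lower, with 79.6% of the siNC level left and a rank of 228 from the lowest. It did not reach 2-fold lower there, as 0.121% of the kept genes did. Against the mean of siNC and the siTAZ array the siYAP value changed sign, to 0.29. That follows from the low siTAZ level being part of the mean.

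The direct comparison of the knockdowns does not subtract the control array. EIF5A2 was 0.92 higher on the siYAP array than on the siTAZ array (1.89-fold), the rank of 14 from the highest. At least 1.5-fold higher in this comparison were 0.566% of the kept genes, with 0.065% past 2-fold upward and 0.0279% past 2-fold downward. SRM, by contrast, was 1547 from the lowest. The 2 genes therefore did not mirror each other: SRM was close on the knockdown arrays, while EIF5A2 separated them. The SRM difference minus the EIF5A2 difference was 2.34 after siTAZ and 1.35 after siYAP, on the log2 scale.

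**Figure D2:**
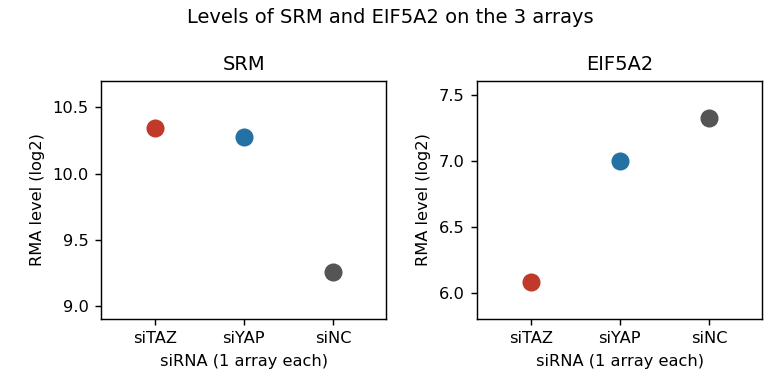
RMA levels (log2, y axis) of SRM (left) and EIF5A2 (right) on the siTAZ, siYAP and siNC arrays, 1 point per array and no error because there were no replicates; both panels span the same number of log2 units. SRM is above siNC on both knockdown arrays, and EIF5A2 is lowest on the siTAZ array, at 6.08.

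**Figure D3:**
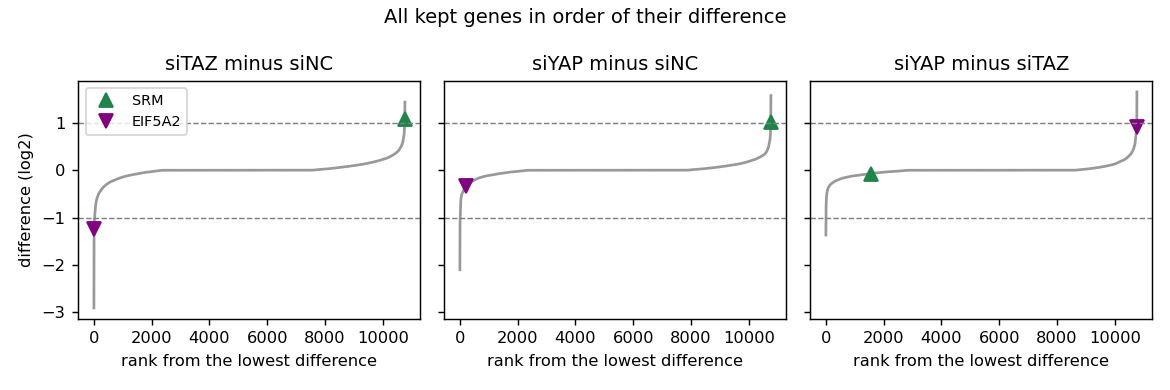
Differences (log2, y axis) of the 10768 kept genes in order from the lowest (x axis, rank) for siTAZ minus siNC, siYAP minus siNC and siYAP minus siTAZ; the grey line is all genes, the triangles are SRM and EIF5A2, and the dashed lines mark 2-fold. SRM lies at the upper end of the first 2 panels and EIF5A2 at the lower end of the first and the upper end of the third.

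The other genes of spermidine and spermine synthesis did not share the SRM difference. ODC1, the first enzyme of the route, was 10.60 on the siTAZ array, 10.18 on the siYAP array and 10.40 on the siNC array, with differences of 0.21 after siTAZ and -0.22 after siYAP. AMD1, which supplies the aminopropyl donor, was listed at 9.95 on all 3 arrays. SMS, which uses spermidine to make spermine, was 9.94 on the siTAZ array and 9.93 on the siYAP and siNC arrays. None of these 3 genes reached 1.5-fold, as 0.762% of the kept genes did upward and 1.02% downward after siTAZ, and 0.52% upward and 0.381% downward after siYAP. A count of 0 among 3 is therefore near the background.

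Of the enzymes that break polyamines down, SMOX, the spermine oxidase, was 9.08 on the siTAZ array, 8.96 on the siYAP array and 8.70 on the siNC array, with differences of 0.38 and 0.26. SAT1, the acetyltransferase that starts polyamine export and breakdown, was 7.99 on the siTAZ array, 8.20 on the siYAP array and 8.33 on the siNC array, with differences of -0.34 and -0.13. SMOX was therefore above and SAT1 below the control on both knockdown arrays, each by less than 1.5-fold. SAT2 was 0.072 and 0.069 above siNC, PAOX (5.17) was identical on the 3 arrays, and SATL1 was under the filter.

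Antizymes bind ornithine decarboxylase and send it to the proteasome, and antizyme inhibitors oppose them. OAZ1 was identical on the 3 arrays at 11.21, as was AZIN2 at 4.45. OAZ2 differed by -0.025 and 0, AZIN1 by 0.061 and -0.028, and the dim OAZ3 (4.18 on siNC) by 0.16 and 0.13, each given for siTAZ and then siYAP. None of the 5 genes was past 1.5-fold, a count near the background shares of all kept genes. This layer acts mainly on translation and protein stability, which the arrays did not measure.

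Polyamine transport was covered thinly, with 3 of 11 listed genes named on the array and 2 kept. ATP13A3, an endosomal ATPase used in polyamine uptake, was 8.59 on the siTAZ array, 8.43 on the siYAP array and 8.88 on the siNC array, with differences of -0.29 and -0.45. The lysosomal polyamine exporter ATP13A2 differed by 0.19 after siTAZ and by -0.027 after siYAP. ATP13A4 was under the filter.

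On the supply side, 6 of 10 arginine and ornithine genes were kept, with medians of 0.044 after siTAZ and 0.023 after siYAP. OAT, the ornithine aminotransferase, was 0.12 and 0.18 above siNC, and AGMAT, annotated as agmatinase, 0.12 and 0.22. ASS1, argininosuccinate synthase, differed by -0.15 and 0.031, the creatine-pathway enzyme GATM by 0.089 and 0.014, and ASL by 0 in both. None of the 6 reached 1.5-fold, a count near the background shares.

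Making spermidine releases methylthioadenosine, which MTAP passes into a salvage path back to methionine. Of 15 genes of the methionine cycle and salvage, 10 were kept, with medians of 0.034 after siTAZ and 0 after siYAP. ADI1, an enzyme late in salvage, was 7.18 on both knockdown arrays and 6.87 on the siNC array. ENOPH1, of the preceding step, differed by 0.26 after siTAZ and -0.029 after siYAP, and MRI1, an isomerase of the path, by 0.15 and 0.0059. MTR, the methionine synthase, was 7.83 on the siYAP array, 8.52 on the siTAZ array and 8.19 on the siNC array. It was -0.68 in siYAP minus siTAZ, the 1 gene of the polyamine and hypusine lists besides EIF5A2 past 1.5-fold in that comparison, in which 0.176% of the kept genes were at least 1.5-fold lower. AHCYL2, a relative of adenosylhomocysteinase, differed by 0 after siTAZ and 0.25 after siYAP. MAT2A has no value here. MTAP was 5.36 on all 3 arrays. A549 is known for a homozygous deletion that takes MTAP with its neighbour CDKN2A, and whether this MTAP value is background signal was not tested.

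Within the hypusine pathway EIF5A2, chosen for its difference, was the 1 gene past 1.5-fold from siNC, and only after siTAZ. Of all kept genes, 0.762% were past 1.5-fold upward and 1.02% downward after siTAZ, and 0.52% and 0.381% after siYAP. A count of 0 among the 8 other kept genes of the pathway is therefore near the background. EIF5A, the widely expressed form, was 5.79 on both knockdown arrays and 5.74 on the siNC array, a difference of 0.046 in each. EIF5AL1, a near-copy of EIF5A, was 4.67 on the siTAZ array, 4.80 on the siYAP array and 4.64 on the siNC array. The probes of these genes may share signal because the sequences are alike, so their values are uncertain, and levels of different probe sets cannot be ordered. The EIF5A probe set thus showed no difference of the size seen for EIF5A2 after siTAZ.

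The enzymes that make hypusine were close to the control. DHPS was 7.84 on the siTAZ array, 7.79 on the siYAP array and 7.77 on the siNC array, and DOHH was 5.17, 5.13 and 5.13 in the same order. XPO4, the exportin that carries eIF5A out of the nucleus, was 7.81 on all 3 arrays. KAT2B, an acetyltransferase that modifies eIF5A, was 7.61 on the siTAZ array, 7.62 on the siYAP array and 8.03 on the siNC array, with differences of -0.43 and -0.41. SIRT2, a deacetylase of eIF5A, was 0.28 and 0.22 above siNC, and HDAC6, another, 0.0061 and 0.0079. KAT2B had the second largest difference of the pathway after EIF5A2 in the siTAZ comparison and the largest in the siYAP comparison, and it did not reach 1.5-fold in either.

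**Figure D4:**
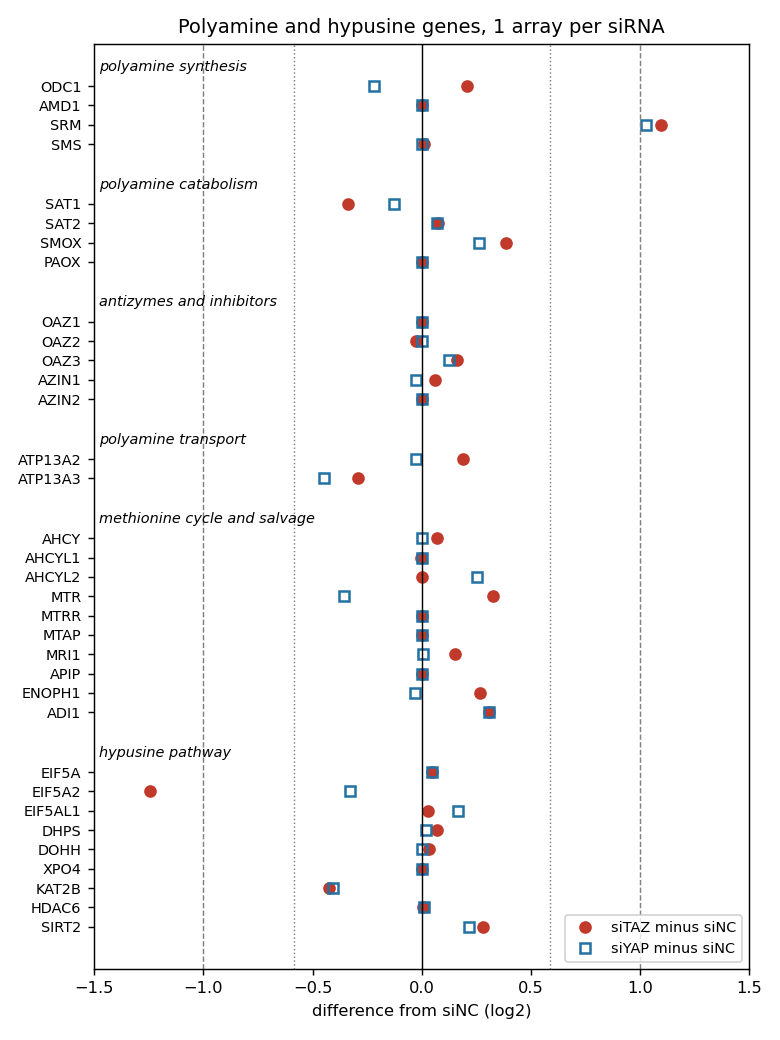
Differences from siNC (log2, x axis) of the kept genes of polyamine synthesis, breakdown, control and transport, methionine salvage and the hypusine pathway; filled circles are siTAZ, open squares siYAP, dashed lines 2-fold and dotted lines 1.5-fold. SRM and EIF5A2 are the genes drawn past the dotted lines, SRM in both comparisons and EIF5A2 after siTAZ.

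All 7 polyamine and hypusine lists together held 59 genes, of which 38 besides SRM and EIF5A2 were kept. After siTAZ, 21 were higher, 11 identical and 6 lower, with a median of 0.020 and a range of -0.43 to 0.38. After siYAP, 15 were higher, 15 identical and 8 lower, with a median of 0 and a range of -0.45 to 0.31. Of all kept genes, 29.7% were higher, 48.5% identical and 21.7% lower after siTAZ, and 27.0%, 51.3% and 21.7% after siYAP, with medians of 0. None of the 38 reached 1.5-fold from siNC in either comparison. Over all kept genes 0.762% were past it upward and 1.02% downward after siTAZ, and 0.52% and 0.381% after siYAP, so a count of 0 among 38 is near the background. Identical values are common in this table. On all 3 arrays, 4423 of the 10768 kept genes were identical, and so were 10 of the 38. Whether such a value is a measured lack of difference was not tested. Of the kept genes, 28.5% had 3 distinct values. SRM and EIF5A2 each had 3 distinct values, as did 20 of the 38 genes.

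eIF5A works among the other translation factors, which were covered in part. Of 46 listed initiation factors and regulators 17 were kept, and of 18 factors of elongation, termination and recycling 11 were kept. Many core initiation factors had no named probe set, so the lists do not describe the whole machinery. The median difference was 0 in both comparisons for both lists. EIF4EBP2, which holds back cap-dependent initiation, was 9.47 on the siTAZ array, 9.99 on the siYAP array and 8.85 on the siNC array, and was the 1 gene of the 2 lists past 1.5-fold. It was 0.61 above siNC after siTAZ and 1.13 after siYAP, so siYAP gave the larger difference, where for EIF5A2 siTAZ did. At least 1.5-fold higher were 0.762% of all kept genes after siTAZ and 0.52% after siYAP. A count of 1 gene is too small to set apart from these shares. EIF4EBP1, of the EIF4EBP2 family, was 0.20 above siNC on both knockdown arrays. EIF2AK4, a kinase that senses uncharged tRNA, was 0.28 after siTAZ and 0 after siYAP, EIF4E3 0.23 and 0, and EIF2D 0.27 and 0.13. Of the elongation factors, EEF2 was 0.11 and 0.15 above siNC, EEF1G 0.091 and 0.13, and EEF1A2 -0.16 and -0.11. EEF2K, the kinase of EEF2, differed by 0.056 and -0.0058, and HBS1L, a ribosome rescue factor, by 0 and -0.066.

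SRM and ODC1 are textbook targets of MYC, which binds E-boxes with MAX. MYC was 7.79 on the siTAZ array, 7.80 on the siYAP array and 7.80 on the siNC array, with differences of -0.0082 and 0.0053, and MAX was 0.11 above siNC on both knockdown arrays. Among the MYC antagonists and relatives, MLXIP was 0.32 above siNC on both, MXD3 0.19 on both, MXD1 -0.066 and 0.086, and MLX -0.13 and 0.018. A list of textbook MYC targets held 25 genes, of which 16 besides SRM were kept. The medians of these 16 were 0.023 after siTAZ and 0 after siYAP. After siTAZ 8 were higher and 5 lower (29.7% and 21.7% of all kept genes). After siYAP 7 were higher and 3 lower (27.0% and 21.7% of all kept genes). Their largest differences were those of PPAT (-0.46 and -0.21), E2F1 (0.066 and 0.42), APEX1 (0.38 and 0.40) and CDK4 (0.36 on both). None of the 16 reached 1.5-fold, against 0.762% of all kept genes upward and 1.02% downward after siTAZ and 0.52% and 0.381% after siYAP, so this count too is near the background.

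Genes next to SRM and EIF5A2 on their chromosomes were compared with the control array. Of the 5 nearest genes with a named probe set on each side of SRM, 8 of 10 were identical after siTAZ and 7 after siYAP, where 48.5% and 51.3% of all kept genes were. EXOSC10 and MTOR, which lie next to SRM on one side, were identical on the 3 arrays, as was MASP2 on the other side. Among the 10 around EIF5A2, the largest differences were those of FNDC3B (-0.16 and -0.25) and TNIK (0 and -0.19), and RPL22L1, next to EIF5A2, was identical at 5.29. None of the 20 reached 1.5-fold, which is near the background. Of all kept genes, 0.762% were past it upward and 1.02% downward after siTAZ, and 0.52% and 0.381% after siYAP. The neighbours MTOR-AS1, MIR569, TMEM212 and GHSR were under the filter, while the shares are over kept genes.

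The 5 kept genes closest to SRM, by the distance between their pairs of differences from siNC over the 3 arrays, were TRANK1 (distance 0.056), the ribosome biogenesis factor NOC4L (0.13), KRTAP10-5 (0.14), F8A1 (0.18) and PRB2 (0.22). KRTAP10-5, F8A1 and PRB2 have close relatives or copies with which probes may share signal. TRANK1, KRTAP10-5 and PRB2 were dim on the siNC array, at 4.76, 4.27 and 4.78, where the filter was a mean of 4.27. TRANK1 had 5 probe sets, of which the brightest was listed at 5.80 on both knockdown arrays. The 5 closest to EIF5A2 were AVL9 (0.047), the autophagy receptor gene SQSTM1 (0.10), GPD2, a mitochondrial glycerol phosphate dehydrogenase (0.14), OSGIN2 (0.16) and IFFO2 (0.18). AVL9, the closest, was 7.74 on the siTAZ array, 8.59 on the siYAP array and 8.96 on the siNC array. NOC4L was 7.28 on the siTAZ array, 7.36 on the siYAP array and 6.20 on the siNC array. The E-box was in the start window of 1 of the 5 genes closest to SRM (TRANK1) and of 0 of the 4 closest to EIF5A2 that had a window. The GC box was in the windows of 1 of 5 and of 4 of 4. Over all 35116 windows, 6.34% held the E-box and 42.6% the GC box. These shares are per window, while a gene was counted if any of its windows held the motif. These genes were picked by their differences, and a link between motif and difference was not tested.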

How the data were processed

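The series measured 3 samples of A549 RNA, each labelled from a 500 ng input and hybridised to a 1-colour Affymetrix array, per the labels' protocols. The authors summarised the arrays with RMA, per the submitters' processing notes; the sources used here do not state its version, the probe annotation or the genome build. The deposited values were read as log2, since they run from 0.96 to 13.5 with near-equal quartiles. Quantile normalization within RMA makes each value relative to its array.

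Of 53617 probe sets, 16098 had 1 gene symbol in the platform annotation, 0 several, and 37519 none; all 16098 Entrez identifiers matched RefSeq (GRCh38.p14) and 0 symbols changed. The brightest probe set stood for its gene, and 10768 of 14884 genes had a mean at or above the median over probe sets (4.27). With 1 array per group no test was possible; differences, ranks and counts at 2-fold and 1.5-fold are descriptions. The number of arrays limits the precision.

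The members, the 11 gene lists and the alternatives were chosen with earlier results of these data known. Named genes were the members, all named genes of the synthesis, breakdown, antizyme and hypusine lists, up to 5 of each other list by size of difference, WWTR1, YAP1, CCN2, ANKRD1, MTAP, MAT2A, MYC and MAX, the 5 chromosomal neighbours on each side and the 5 genes closest in pattern; neighbours not named in the text are counted. The marker genes named were picked out after their values were seen. SRM and EIF5A2 were left out of list medians. Analysis used Python 3.11.15, pandas 2.3.3 and statsmodels 0.14.6. Simulated data without ties were used to check only that known shifts were recovered in the log2 differences.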

Additional observations from a re-analysis of the deposited data

How the results depend on the processing

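SRM and EIF5A2 kept their direction and side of 2-fold in all 3 comparisons after subtracting a lowess trend (span 0.4). They also did so after a new quantile normalization. Shifting the median to 0 and averaging probe sets changed neither gene, by construction. The median over kept genes was already 0 in all 3 comparisons, and each of the genes has 1 probe set. With the mean of siNC and the other knockdown as reference, the SRM difference was 0.58 after siTAZ and 0.48 after siYAP, both under 2-fold, and EIF5A2 after siYAP changed sign, to 0.29, while EIF5A2 after siTAZ was -1.08. The SRM difference minus that of EIF5A2 after siYAP was then 0.18. That reference contains a knockdown array on which SRM is above and EIF5A2 below siNC, so by construction the SRM differences become smaller and the EIF5A2 differences move upward. The list medians stayed within -0.25 to 0.11 over 8 alternatives. With the changed reference, counts of genes at 2-fold after siTAZ were 1 higher and 13 lower (against 8 and 26), and after siYAP 0 and 1 (against 8 and 13); at 1.5-fold they were 25 and 67 (against 82 and 110) and 19 and 12 (against 56 and 41). Without the filter, siYAP minus siTAZ had 5 genes lower by 2-fold or more and 32 by 1.5-fold or more (against 3 and 19). The other 82 counts stayed within 1.5 times. The 5 closest genes to SRM and to EIF5A2 were the same by the larger of the 2 gaps. No dimmer probe set could be tried, because each gene has 1. No paired analysis was possible because each group has 1 array, and no array could be left out.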
